A study of Mus musculus with 24 samples.

Results

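Egr1, Fos, Fosb, Jun, Junb, Jund, Atf3, Ier2 and Ier3 are immediate early genes, most of which encode transcription factors. In the ovaries of FL1 and DUKsi mice these 9 genes, of the 12393 that a probe set of 1 gene names, were measured by 10 of the 22626 probe sets tested. All probe sets annotated to 1 of the 9 symbols were taken. Jun had 2 of them, each other gene had 1, and 0 probe sets named such a gene beside another one. FL1 is a mouse line that was selected to generation 130 for an index of litter size and litter weight at birth. The control line DUKsi goes back to the animals from which FL1 was founded, and was bred by inbreeding without selection. Ovaries of both lines came from virgin females of 6 to 9 weeks that were killed at metestrus, 2 to 3 h after the vaginal smear. Ovarian RNA of each line was combined to 6 pools and each pool was hybridized to 2 Affymetrix MOE 430A arrays, 24 arrays in all. The sample labels give 6 animals per pool, whereas the 30 animals of a line divided over 6 pools make 5. A pool averages its animals, so the spread given here is that between pools.

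Immediate early genes are transcribed within minutes of a stimulus from factors that are already present in the cell, such as serum response factor and CREB, and their mRNAs are short-lived. Fos and Fosb proteins pair with Jun, Junb or Jund to form AP-1, Atf3 is a related bZIP factor, and Egr1 is a zinc finger factor. In granulosa cells, Egr1 and AP-1 genes are known to respond to luteinizing hormone, and Egr1 takes part in the induction of ovulatory genes. Whole ovaries were measured, so that fewer cells of a type and less RNA per cell cannot be told apart.

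The sequence before the start of transcription is where the factors that induce these genes bind, and it is shown for 4 of them. Fos, Jun and Ier3 were taken because their pairs were among the highest correlations between pools, and Junb because it had the smallest adjusted p between the lines. Atf3 also had such pairs in FL1 and was searched, but its sequence is not shown. The high correlations of Fos, Jun and Ier3 with each other rested largely on 1 pool, as given further below. The letters are RefSeq sequence of GRCm38.p6, 5′ to 3′ on the strand of the gene, and the 4 shown end at the base before the start of the gene. Capitals mark the motifs searched and found, which are TGACG or its reverse complement CGTCA (the half-site of the cAMP response element), TGACATCA or TGATGTCA (a Jun-type AP-1 site) and TATAA. Fos (chr12:85473740-85473889, plus strand) and Ier3 (chr17:35821563-35821712, plus strand) both carried TATAA. Junb (chr8:84978749-84978898, minus strand) shared TGACG with Fos. Jun (chr4:95052223-95052372, minus strand) was the only one of the 7 genes searched with the Jun-type AP-1 site.
Fos: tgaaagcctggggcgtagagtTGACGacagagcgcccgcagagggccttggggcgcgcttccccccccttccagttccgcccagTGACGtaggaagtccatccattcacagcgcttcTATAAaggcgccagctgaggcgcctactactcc
Junb: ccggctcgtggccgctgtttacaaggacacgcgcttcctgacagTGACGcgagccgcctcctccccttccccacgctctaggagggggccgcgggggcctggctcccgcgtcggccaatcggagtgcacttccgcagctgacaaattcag
Jun: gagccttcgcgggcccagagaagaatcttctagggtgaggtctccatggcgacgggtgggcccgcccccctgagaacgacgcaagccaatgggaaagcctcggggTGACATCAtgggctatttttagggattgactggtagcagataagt
Ier3: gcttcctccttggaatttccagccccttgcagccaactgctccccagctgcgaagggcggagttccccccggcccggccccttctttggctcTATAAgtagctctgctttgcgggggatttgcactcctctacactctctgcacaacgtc

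Sequences of 7 of the 9 genes were searched over 150 bases, on both strands except for TATAA, which was read on the strand of the gene. TGACG or CGTCA was found in 4 of them (Fos, Fosb, Junb and Atf3) and in 13.5% of the 27025 promoters of the table. In Fos it began at positions -129 and -66, counted back from -1 at the base before the gene, and in Junb at -106. The Jun-type AP-1 site of Jun began at -45 and was present in 2.41% of promoters. TATAA began at -33 in Fos and at -58 in Ier3, and 10.6% of promoters held it. An EGR site (GCGGGGGCG or GCGTGGGCG, or the reverse complement of either) was found in Fosb and in 2.52% of promoters. For Fosb the window of the table precedes a start inside the gene as annotated, and its EGR and TGACG matches lie within that gene. The AP-1 sequence TGACTCA or its reverse complement (2.8% of promoters) and the CArG box of serum response factor (0.884%) were in none of the 7 windows. None of the matches overlapped another one. A match describes the letters only, and where there was none, only these letters in this window were missing.

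The median signal of a pool was 213.7 to 235.9 in FL1 and 225.9 to 241.1 in DUKsi. RNA integrity was measured as the signal ratio of 3′ over 5′ probe sets of 2 control genes. For beta-actin the ratio was higher in FL1 at 1.67 ± 0.423, against 1.27 ± 0.0522 in DUKsi (SD over 6 pools, p = 0.002165 by exact permutation, two-sided, which is the lower limit of this design). For Gapdh it was 1.53 ± 0.420 in FL1 and 1.28 ± 0.146 in DUKsi, which did not pass the same test (exact permutation p = 0.2035). FL1 pool 3 stood apart with a mean correlation of 0.947 to the rest of its line, where the other 11 pools had 0.960 to 0.975. Of the 10 ovary markers measured, 0 lay under the dim level in both lines. The dim level is a signal of 48.4, below which the dimmest 20% of all signals were found. All samples were ovary, so these markers do not check the labels of line and pool. Markers of fat and oviduct were uneven between pools. Their values stand beside the results they move with.

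The first question was whether any of the immediate early genes differed between FL1 and DUKsi. None of them passed the test. Of the 10 probe sets, 0 passed an adjusted p under 0.01 in limma, where 3.38% of all probe sets passed, and 0 were past this threshold with a fold of at least 1.5, where 2.32% were. At an unadjusted p under 0.05 the count was again 0 of 10, against 19.8% of all probe sets, and 0 were called by the methods' t-test. An adjusted p under 0.05 was reached by 0 of 10, against 6.91% of all. The pools of the lines overlapped for 10 of 10 probe sets, whereas 4.62% of all probe sets did not overlap. In FL1 the mean log2 signal was higher for 4 probe sets and lower for 6. A ratio of means of at least 1.5 in either direction was found for 1 of 10 (Atf3), against 8.57% of all probe sets. The median log2 fold change of the 10 probe sets was -0.02, against -0.07 over all probe sets, and the median absolute log2 fold change was 0.10, against 0.18.

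**Figure D1:**
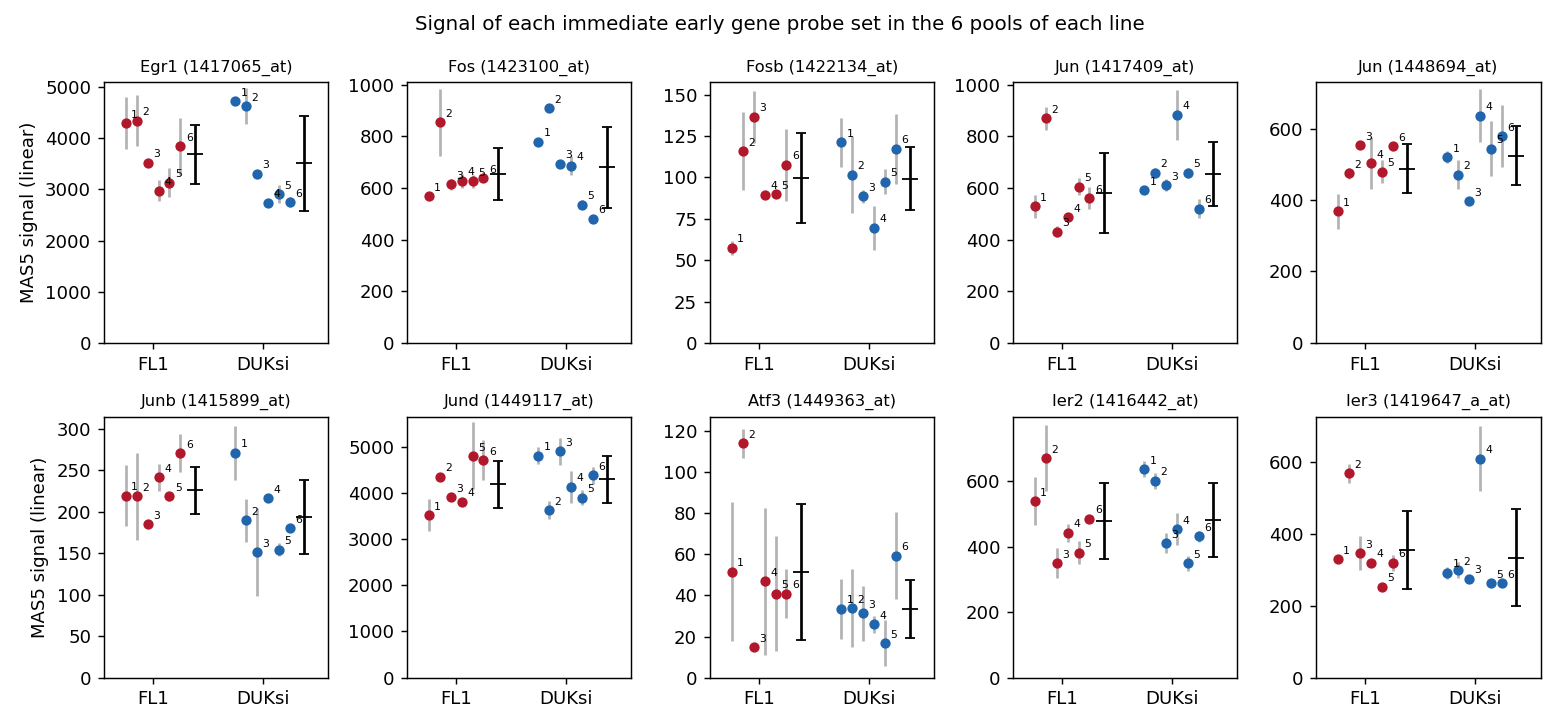
Deposited MAS5 signal (linear scale) of the 10 probe sets in each pool of FL1 (red) and DUKsi (blue). Points are means of the 2 arrays of a pool with the pool number beside them, grey lines join the 2 arrays, and the black bar is the mean with the SD over 6 pools. The lines overlap in every panel, FL1 pool 2 is the highest FL1 pool for Fos, Atf3, Ier2, Ier3 and the brighter of the Jun probe sets but not for the dimmer one, and DUKsi pool 4 is the highest DUKsi pool for Ier3 and both Jun probe sets.

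Egr1, the zinc finger factor, ran from a signal of 2975 to 4343 (median 3681) in FL1 and 2742 to 4722.5 (median 3109) in DUKsi. Signals of different probe sets are not set against each other here, since each has its own brightness. The FL1 pools all lay within the range of the DUKsi pools. The means were 3684 ± 577 in FL1 and 3510.1 ± 924.5 in DUKsi (n = 6 pools per line, SD), and the comparison did not pass the test (limma log2 fold change 0.09, SE 0.148, adjusted p = 0.774). The 95% interval of the fold was 0.859 to 1.33, so that a 1.5-fold difference in either direction lay outside of it.

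Fos, the inducible partner in AP-1, had a signal of 567.5 to 854 (median 627) in FL1 and 482 to 910.2 (median 690.2) in DUKsi. Its means were 655 ± 101 in FL1 and 681 ± 157 in DUKsi (n = 6 pools per line, SD) with a 95% interval of the fold of 0.791 to 1.201 (limma log2 fold change -0.04, SE 0.142, adjusted p = 0.919). For Fos 1 of 6 FL1 pools exceeded the DUKsi mean, and the FL1 range was inside that of DUKsi. Fosb, a relative of Fos, had 57.5 to 137 (median 98.7) in FL1 and 69.5 to 121 (median 99.5) in DUKsi. The fold of Fosb had an interval of 0.719 to 1.35 (limma log2 fold change -0.02, SE 0.214, adjusted p = 0.969), which is wider than that of Fos.

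Jun, the dimerization partner of the Fos proteins, was measured by 2 probe sets. The brighter one gave 431 to 870.2 (median 546) in FL1 and 521 to 885 (median 635) in DUKsi, and the dimmer one gave 368 to 553 (median 491) in FL1 and 397 to 636 (median 532) in DUKsi. Both were slightly lower in FL1 by mean log2 signal, without passing the test (brighter: limma log2 fold change -0.19, SE 0.153, adjusted p = 0.536, dimmer: limma log2 fold change -0.10, SE 0.122, adjusted p = 0.698). Their intervals of the fold were 0.6995 to 1.10 and 0.779 to 1.12. Over the 6 pools of a line the correlation of the 2 probe sets did not pass the test (r = -0.19 in FL1, exact permutation p = 0.594, and r = 0.37 in DUKsi, p = 0.475). The 2 arrays of a pool agreed better for the brighter probe set (r = 0.91 in FL1 and 0.96 in DUKsi over 6 pools) than for the dimmer one (0.53 in FL1 and 0.39 in DUKsi). The brighter probe set stood for Jun in all correlations.

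Junb, a weaker activator than Jun within AP-1, had the smallest adjusted p of the 10 probe sets. Its signal was 185 to 271 (median 219) in FL1 and 152 to 271 (median 185) in DUKsi. The means of 226 ± 28.6 in FL1 and 194 ± 44.8 in DUKsi (n = 6 pools per line, SD) gave a ratio of 1.16, and the interval of the fold of 0.947 to 1.47 included 1 (limma log2 fold change 0.24, SE 0.150, adjusted p = 0.406). In 5 of 6 FL1 pools Junb exceeded the DUKsi mean. The arrays of a pool agreed poorly for Junb (r = -0.12 in FL1 and 0.30 in DUKsi). Jund, the family member that is expressed without a stimulus in most tissues, had 3523 to 4800.1 (median 4129) in FL1 and 3628 to 4905 (median 4258) in DUKsi. Jund had the narrowest interval of the fold, 0.8502 to 1.12 (limma log2 fold change -0.04, SE 0.0924, adjusted p = 0.865).

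Atf3, the stress-induced repressor of the ATF family, was dim in most pools. Its signal was below the dim level of 48.4 in 4 FL1 pools and 5 DUKsi pools, 9 of 12 in all. It measured 14.7 to 114 (median 43.8) in FL1 and 16.7 to 59.2 (median 32.4) in DUKsi. The ratio of means was 1.54 (limma log2 fold change 0.48, SE 0.407, adjusted p = 0.559) with an interval of the fold of 0.766 to 2.55, so that for Atf3 a 1.5-fold difference lay inside the interval. The SD between the 2 arrays of a pool was 1.30 in FL1 and 1.07 in DUKsi on the log2 scale, larger than the SD of 0.945 and 0.594 between the pools of these lines. With the beta-actin ratio as a covariate Atf3 had an adjusted p = 0.0261 in limma, which is not past 0.01, at a log2 fold change of 1.39. Its log2 fold change was 0.90 on the first arrays and -0.08 on the second arrays, 0.79 without FL1 pool 3, 0.20 without FL1 pool 2, 0.30 without DUKsi pool 5 and 0.17 without the 3 fat-rich pools. The p with the covariate was the lowest p of any member in any alternative, and the range for Atf3 over its 26 alternatives was 0.0261 to 0.968. The beta-actin ratio of the FL1 pools (1.322 to 2.454) lay above that of every DUKsi pool (1.18 to 1.317). The fit with the covariate therefore cannot tell line and ratio apart.

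Ier2, a nuclear protein that is induced together with Fos by serum, was 349.6 to 671 (median 463.5) in FL1 and 349 to 637 (median 443) in DUKsi. With means of 478 ± 117 in FL1 and 481 ± 113 in DUKsi (n = 6 pools per line, SD) it was the member closest to no difference (limma log2 fold change -0.01, SE 0.169, adjusted p = 0.982, interval of the fold 0.774 to 1.27). Ier3, an early response gene linked to cell survival and a target of NF-kappaB, was 254 to 569 (median 325) in FL1 and 263 to 610.0 (median 284) in DUKsi. Its means were 357 ± 109 in FL1 and 334 ± 136 in DUKsi (n = 6 pools per line, SD), with an interval of the fold of 0.796 to 1.49 (limma log2 fold change 0.12, SE 0.212, adjusted p = 0.802). In both lines 1 pool of Ier3 lay far above the other 5. Of the 10 intervals of the main limma fit, 9 left out a 1.5-fold difference in both directions, all but that of Atf3. Under the alternatives the log2 fold change ranged from 0.18 to 0.42 for Junb and from -0.02 to 0.31 for Ier3. Intervals of the alternatives are not given here, so the count of 9 holds for the main fit only.

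**Figure D2:**
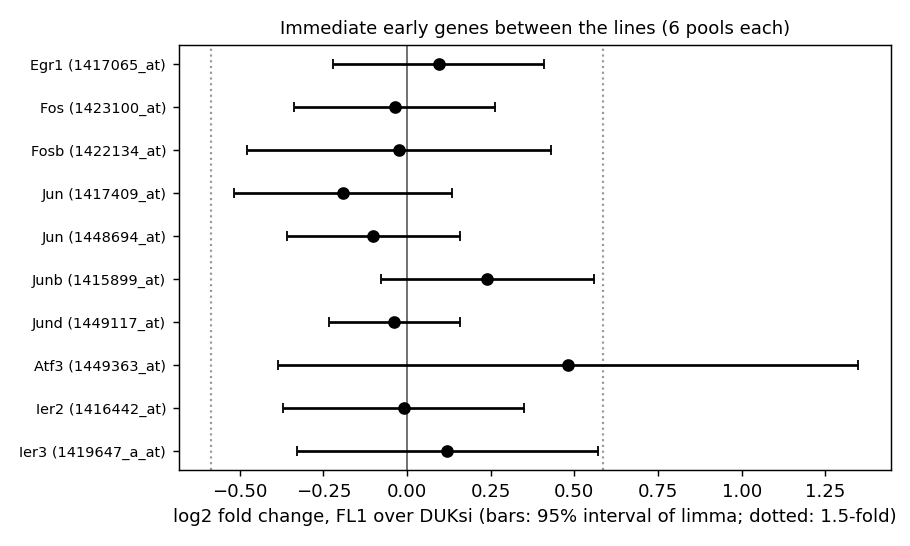
Log2 fold change of each probe set, FL1 over DUKsi, from limma on 6 pools per line. Points are estimates, bars are 95% intervals, the solid line is no difference and the dotted lines are 1.5-fold in either direction. Every interval includes 0, and only that of Atf3 (log2 -0.38 to 1.35) crosses a dotted line.

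The next question was how far the spread between pools was repeated on a second array. In DUKsi the repeated part was large for Egr1, Fos, Jun, Ier2 and Ier3. The first arrays of the 6 DUKsi pools correlated with the second ones at 0.94 for Egr1, 0.97 for Fos, 0.96 for Jun, 0.85 for Ier2 and 0.96 for Ier3. In FL1 the same correlations were 0.34 for Egr1, 0.80 for Fos, 0.91 for Jun, 0.62 for Ier2 and 0.86 for Ier3. The value of Ier3 in DUKsi rested largely on pool 4, with signals of 700.9 and 519.2 on its arrays. Arrays of the other DUKsi pools gave 256.4 to 323.3 for Ier3. The median over the brighter 60% of probe sets was 0.584 in FL1 and 0.425 in DUKsi. Fosb repeated in FL1 (0.85) and not in DUKsi (0.19), while Atf3 was at 0.00 in FL1 and -0.20 in DUKsi. These are descriptions over 6 pools, for which no test was made, and they do not include effects that both arrays of a pool share.

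Several members varied more between DUKsi pools than most genes did. In DUKsi the SD of log2 signals was 0.364 for Egr1, 0.340 for Fos, 0.334 for Ier2 and 0.468 for Ier3. Only 5.69% of the brighter probe sets had a larger SD than Egr1, 7.06% than Fos, 7.50% than Ier2 and 2.25% than Ier3. For Ier3 the SD in DUKsi rested largely on pool 4 (signal 610, others 263.1 to 300). In FL1 the SD was 0.229 for Egr1 and 0.203 for Fos, which 40.2% and 49.1% of the brighter probe sets exceeded. Jun, Ier2 and Ier3 varied in FL1 with an SD of 0.348, 0.342 and 0.386, exceeded by 14.8%, 15.6% and 10.4% of them. The difference in spread between the lines was not tested.

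**Figure D3:**
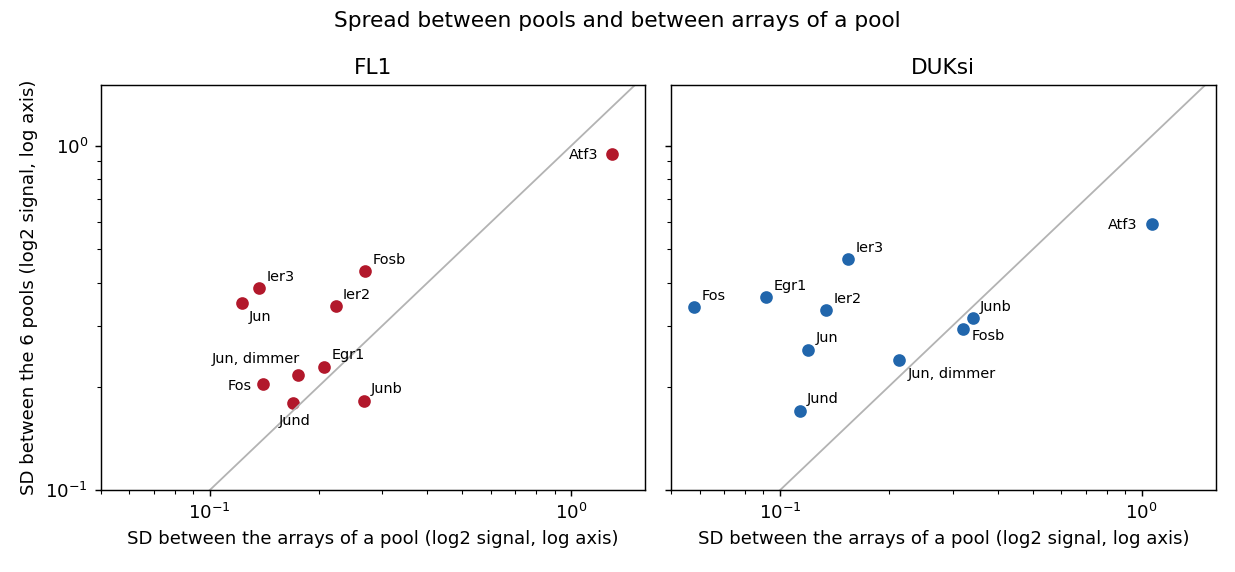
SD of log2 signals between the 6 pools (vertical axis) against the SD between the 2 arrays of a pool (horizontal axis) for the 10 probe sets, both on log axes, with FL1 left and DUKsi right. The grey line marks equal SD. In DUKsi Fos, Egr1, Ier2, Ier3, Jun and Jund lie above the line. Atf3 and Junb lie below it in both lines, and Fosb does so in DUKsi only.

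The pools with high or low values were then looked at one by one. In FL1, pool 2 had the highest signal of Fos (854), the brighter Jun probe set (870.2), Atf3 (114), Ier2 (671) and Ier3 (569) and also of Egr1 (4343). The other 5 FL1 pools were at 568 to 639 for Fos, at 431 to 605 for the brighter Jun probe set and at 254 to 347 for Ier3. For Egr1, FL1 pool 1 was nearly as high (4294). The dimmer Jun probe set did not share this pattern, with 474.5 in FL1 pool 2 and up to 553 in FL1 pool 3. In DUKsi the high pools differed by gene. Pools 1 and 2 were high for Egr1 (4723 and 4624, others 2742 to 3307) and for Ier2 (637 and 601, others 349 to 453.5). Fos was at 779 in pool 1 and 910.2 in pool 2, others 482 to 694. Jun and Ier3 were instead highest in pool 4, with 885 for the brighter Jun probe set (others 521 to 659), 636 for the dimmer one (others 397 to 579) and 610.0 for Ier3 (others 263 to 300.0).

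Marker genes of fat tissue moved with some of these pools. Adipoq, the adipocyte hormone adiponectin, had a signal of 961 in FL1 pool 2, against 22.9 to 136 in the other FL1 pools. In DUKsi Adipoq was 725 in pool 1 and 570.4 in pool 4, against 7.45 to 64.2 in the other 4 pools. Fabp4, the fatty acid binding protein of adipocytes, was 1427 in FL1 pool 2 (others 86.8 to 164) and 960.2 and 560.5 in DUKsi pools 1 and 4 (others 65.3 to 152). The 5 measured fat markers, of which 1 was under the dim level in both lines, summed to 3655 to 7880 in FL1 and 3353 to 6311 in DUKsi, and most of the sum was Lpl, which is not limited to fat. Ovgp1, the oviductin of the oviduct epithelium, was 3462 in DUKsi pool 4 and 165 to 389 in the other 11 pools, and the 9 epithelium and oviduct markers summed to 2366 to 2651 in FL1 and 1481 to 7269 in DUKsi. The FL1 pool in which Fos, Atf3, Ier2, Ier3 and 1 of the 2 Jun probe sets were highest was the pool rich in fat markers, and the DUKsi pool in which Jun and Ier3 were highest was rich in fat and oviduct markers. DUKsi pool 4 was also the highest DUKsi pool for the summed markers of smooth muscle (25430, others 18842 to 21955), macrophages (8606, others 6127 to 6963), endothelium (5273, others 4460 to 4839) and lymphocytes (1245, others 907 to 1088). DUKsi pool 2, with the highest Fos and the second highest Egr1 and Ier2, had however the lowest Adipoq of all pools, 7.45. Of 60 correlations between a member and Adipoq, Fabp4 or Ovgp1 within a line, 0 had an adjusted p under 0.05, but a single relation at the smallest p of 6 pools could not have passed. The closest were Ier3 with Fabp4 in FL1 (r = 0.97, exact permutation p = 0.00278, adjusted p = 0.0833) and Atf3 with Ovgp1 in FL1 (r = -0.94, exact permutation p = 0.00278, adjusted p = 0.0833). Their part in the results was not tested. Without the 3 fat-rich pools (FL1 pool 2, DUKsi pools 1 and 4) the count of members called between the lines was 0, as it was without FL1 pool 3 and DUKsi pool 4.

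**Figure D4:**
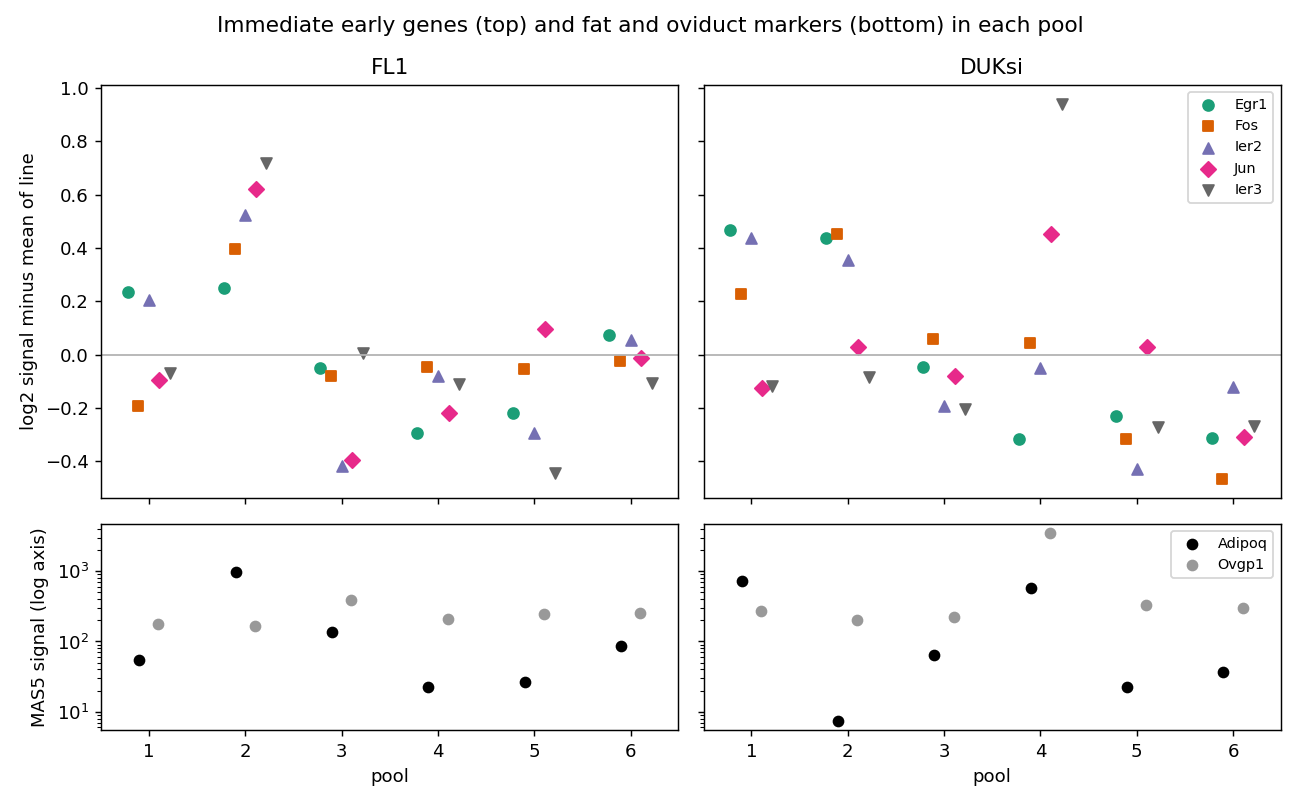
Upper panels: log2 signal of Egr1, Fos, Ier2, Jun and Ier3 in each pool minus the mean of the line. Lower panels: MAS5 signal of the fat marker Adipoq and the oviduct marker Ovgp1 in the same pools on a log axis, with FL1 left and DUKsi right. FL1 pool 2 is high in the upper panel and at 961 for Adipoq, DUKsi pools 1 and 2 are high for Egr1, Fos and Ier2 with Adipoq at 725 and 7.45, and DUKsi pool 4 is high for Ier3 with Ovgp1 at 3462.

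The last question was whether the genes varied together over the pools of a line. No pair of genes passed the test in either line, 0 of 36 in FL1 and 0 of 36 in DUKsi at an adjusted p under 0.05 over the 72 relations (two-sided exact permutation of log2 signals, Benjamini-Hochberg, smallest adjusted p 0.75). At an unadjusted p under 0.05, Pearson's r gave 1 pair in each line and Spearman's rho gave 0 in FL1 and 1 in DUKsi. Over 6 pools the smallest p that can be reached is 0.00278. Since 72 pairs were tested, a single pair at this p would still fail the correction, and the count of 0 says little about the relations themselves. The values of r are therefore given as a description.

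In FL1 r was above 0 in 27 of 36 pairs, against 50% of all pairs of brighter probe sets, and the median was 0.40, against 0.00. Without FL1 pool 2 the median was 0.06. In DUKsi 24 of 36 were above 0, against 50.1%, and the median was 0.18, with -0.01 without DUKsi pool 5 and 0.05 without DUKsi pool 1. Fosb and Atf3 are not among the brighter probe sets, so that these shares have a like background for 21 of the 36 pairs only. Of those 21, 16 were above 0 in FL1 (median 0.39) and 15 in DUKsi (median 0.19). An r of at least 0.8 was reached by 4 pairs in FL1 (5.8% of all pairs) and by 3 pairs in DUKsi (3.52%). The 4 pairs of FL1 were Fos and Jun (0.85), Fos and Ier3 (0.84), Jun and Atf3 (0.87) and Atf3 and Ier2 (0.89). The 3 pairs of DUKsi were Egr1 and Fos (0.81), Egr1 and Ier2 (0.86) and Jun and Ier3 (0.89), so that no pair was at 0.8 in both lines. Of the 21 pairs without Fosb and Atf3, 2 were at 0.8 or more in FL1 and 3 in DUKsi. The lowest r in DUKsi was that of Fosb and Jun, the members of 1 possible AP-1 dimer, at -0.88. It was -0.60 without DUKsi pool 4 (over all 6 DUKsi pools, exact permutation p = 0.0528, adjusted p = 0.75). The same pair was at 0.07 in FL1. Pairs of genes share their pools and are not independent of each other.

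**Figure D5:**
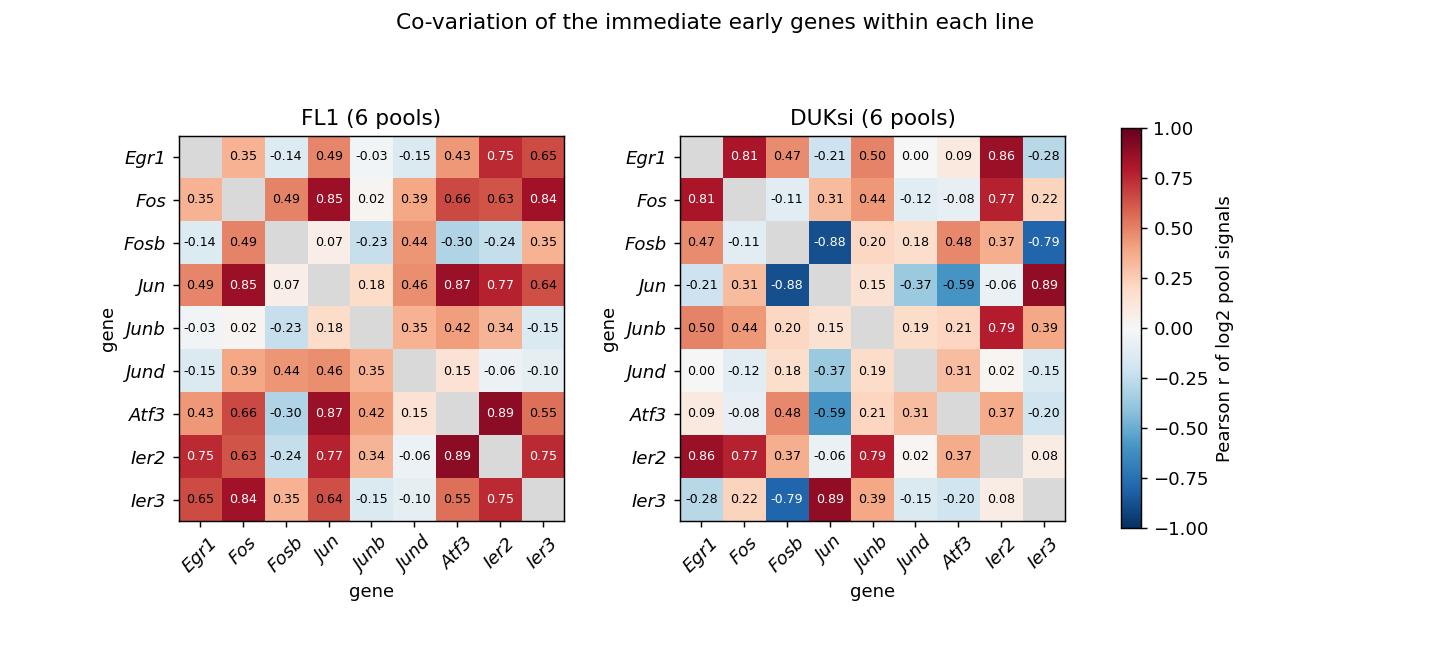
Pearson r of log2 pool signals for each pair of the 9 genes over 6 pools, FL1 left and DUKsi right, with red for positive and blue for negative values. Egr1 and Ier2 are at 0.75 in FL1 and 0.86 in DUKsi, whereas Egr1 and Ier3 are at 0.65 in FL1 and -0.28 in DUKsi, where the value is 0.98 without pool 4.

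An r of at least 0.6 in both lines was found for 3 of 36 pairs, against 2.67% of all pairs of brighter probe sets. Egr1 and Ier2 had r = 0.75 in FL1 (exact permutation p = 0.0944, rho = 0.77, p = 0.103) and r = 0.86 in DUKsi (exact permutation p = 0.0944, rho = 0.49, p = 0.356), each with adjusted p = 0.75. Without the 2 pools farthest from the median of Egr1, r was 0.85 in FL1 but -0.29 in DUKsi, where the relation rested on pools 1 and 2. Fos and Ier2 had r = 0.63 in FL1 (exact permutation p = 0.244, rho = 0.43, adjusted p = 0.953) and r = 0.77 in DUKsi (exact permutation p = 0.0667, rho = 0.66, adjusted p = 0.75). Without the 2 farthest pools they were at 0.94 in FL1 and 0.88 in DUKsi, but without FL1 pool 2 alone r was -0.44. Jun and Ier3 had r = 0.64 in FL1 (exact permutation p = 0.325, rho = 0.03, adjusted p = 0.953) and r = 0.89 in DUKsi (exact permutation p = 0.111, rho = 0.37, adjusted p = 0.75). That relation rested on 1 pool per line, since r was -0.79 without FL1 pool 2 and 0.36 without DUKsi pool 4, and without the 2 farthest pools it was -0.76 in FL1 and -0.21 in DUKsi.

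Some of the other high values of r in FL1 also rested on pool 2. Without it, Fos and Jun were at 0.13, Fos and Ier3 at -0.30 and Egr1 and Fos at -0.66, while Jun and Atf3 were at 0.70, Atf3 and Ier2 at 0.77 and Egr1 and Ier2 at 0.62. Without the 2 pools farthest from the median of the first gene, Fos and Jun were at 0.68, Fos and Ier3 at -0.21, Jun and Atf3 at -0.68 and Atf3 and Ier2 at 0.66. Atf3 and Ier2 was the pair with the lowest p in FL1 (exact permutation p = 0.0167, rho = 0.83, p = 0.0583, adjusted p = 0.75), but Atf3 was dim in 4 of the 6 pools and its arrays did not agree. With Atf3 and Ier2 each taken from a different array of the pool, the mean r was 0.49. In DUKsi, Egr1 and Fos (exact permutation p = 0.0389, rho = 0.77, p = 0.103, adjusted p = 0.75) were at 0.80 when taken from different arrays, at 0.48 without pools 1 and 2, and at 0.97 without the fat-rich pools 1 and 4 (4 pools, no test). Egr1 and Ier2 were at 0.87 and Fos and Ier2 at 0.78 in DUKsi without pools 1 and 4.

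The beta-actin ratio also moved with some members within FL1. Atf3 had r = -0.90 with it (exact permutation p = 0.025, adjusted p = 0.25), the dimmer Jun probe set 0.73 (exact permutation p = 0.00556, adjusted p = 0.111), Ier2 -0.75 and the brighter Jun probe set -0.71 (exact permutation p = 0.0583 and adjusted p = 0.292 for both). None of the 20 relations of members with the ratio over 6 pools passed an adjusted p under 0.05, which a single relation at the smallest reachable p could not have done either. The ratio was 1.32 in FL1 pools 1 and 2 and 2.45 in FL1 pool 3, the highest. The partial r of the pairs given this ratio was computed as an alternative, but without a p. The part of RNA quality in these values was therefore not tested.

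Other immediate early genes were taken from a list of 37 genes, of which 36 were measured. At an adjusted p under 0.01, 0 of these were higher in FL1 (1.83% of all probe sets) and 1 was lower (1.55%), with a median log2 fold change of -0.03. The 1 gene was Cebpb, a bZIP factor that is needed for luteinization. Cebpb had a signal of 612 to 854 in the FL1 pools and of 939.8 to 1353 in the DUKsi pools, with no overlap. It fell to 696.5 ± 93.4 in FL1, against 1111 ± 159 in DUKsi (by limma, log2 fold change -0.67, SE 0.104, adjusted p = 0.000672), although not under 0.01 by the methods' t-test (adjusted p = 0.011). Among 19 of 21 other AP-1 and ATF family genes none passed in either direction (0 and 0), against 1.83% and 1.55% of all probe sets. The brightest were Atf4, the factor of the integrated stress response, with 2238 ± 396 in FL1 and 1939.6 ± 174 in DUKsi (adjusted p = 0.313), and Nfe2l1, with 2050.5 ± 146 in FL1 and 2259 ± 128 in DUKsi (adjusted p = 0.228).

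The genes that signal to the immediate early genes did not pass the test either. Of 17 measured genes (26 listed) of serum response and MAP kinase input 0 were higher (1.83% of all probe sets) and 0 lower (1.55%). With so few genes a count of 0 lies near these shares. The brightest were Map2k1, which encodes the kinase MEK1 (log2 fold change 0.05, adjusted p = 0.714), and Rps6ka3, which encodes the kinase RSK2 (0.19, adjusted p = 0.0903). Of 18 measured feedback inhibitors and corepressors (20 listed), 1 was higher in FL1 and 0 were lower, against the same shares of all probe sets. The 1 gene was Dusp6, the phosphatase that inactivates ERK. Dusp6 had 497 to 795 in the FL1 pools and 291.7 to 423 in the DUKsi pools, without overlap, and rose to 609 ± 104 in FL1, against 356 ± 50.3 in DUKsi (by limma, log2 fold change 0.77, SE 0.121, adjusted p = 0.00076). On the second arrays alone the adjusted p was 0.053, and by the methods' t-test, again adjusted by Benjamini-Hochberg, it was 0.0126. FL1 pool 2 was the highest for Dusp6 too (795).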

How the data were processed

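Ovary RNA of 12 pools was measured on 24 arrays, 2 per pool. The deposited intensity values, on a linear scale, come from the authors' run of MAS5 (Microarray Suite 5.0), brought to 1 level on every array (trimmed mean 500.1). They carry no depth, so the number of arrays limits the precision. Single-probe intensities, present calls and qPCR values were not used here.

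Both arrays of a pool were averaged. The log2 signals were compared in R 4.3.3 with limma 3.58.1 (moderated by empirical Bayes, variance trend included) over 22626 probe sets, with 64 control probe sets left out and Benjamini-Hochberg adjustment over all tested. A probe set passed at an adjusted p under 0.01 and was called with a ratio of means of at least 1.5 as well. Correlations of log2 pool signals within a line used 1 probe set per gene, the one with the highest mean signal, and two-sided exact permutation over all 720 pairings of 6 pools (Python 3.11.15, NumPy 2.4.6), adjusted over both lines. Background correlations used 12498 probe sets of 1 gene in the brighter 60%. Both procedures were tested on simulated data.

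The probe table named 1 gene for 20380 probe sets, several for 691 and none for 1555. Symbols, coordinates and sequences came from RefSeq on GRCm38.p6. Named were all probe sets of the 9 genes, in each other list up to 4 genes with the largest absolute log2 fold change past the test, otherwise the brightest 2 at most, and the 8 genes most like the mean of the members. Not every gene under this rule is reported. The members, lists and rule were chosen with earlier results of these data known. Adipoq, Ovgp1 and the other early genes named by their correlation were singled out after their values were seen.

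Alternatives were each array alone, averaging after log2, 24 arrays with pools as random blocks, quantile or median scaling, a constant of 50 before log2, no probe sets from the dimmest 40%, the methods' t-test, limma with no variance trend, robust limma, a block for the pool number, the beta-actin ratio as a covariate, an adjusted p under 0.05, no fold threshold, the mean of the Jun probe sets and each pool left out. The p of the methods' t-test was adjusted by Benjamini-Hochberg, whereas the study used q-values. For correlations, linear signals, rho, different arrays for the genes of a pair, the partial r given the beta-actin ratio and the omission of the 2 farthest pools were added. Leaving out the pair FL1 pool 3 and DUKsi pool 4, or the fat-rich pools (FL1 pool 2, DUKsi pools 1 and 4), was chosen after seeing the data.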

Additional observations from a re-analysis of the deposited data

Results flagged for a closer look

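In 4 of the 20 groups of 6 pools looked at (10 probe sets in each line), 1 pool lay far from the other 5 by the ratio of its gap to the whole range (Dixon). Chance gives about 1 such group in 20 where values are normally distributed and groups are independent. The signals were taken on the linear scale, not as log2, and the groups share their pools. The share of all probe sets with such a far pool was not computed, so the count says nothing particular to these genes. In FL1 the far pool was pool 2 in each case. Fos was 854.1 there, against 567.5 to 639.1 in the other FL1 pools. Atf3 was 114 in FL1 pool 2, against 14.7 to 51.55 in the others, of which 4 were under the dim level. Ier3 was 569.2 in FL1 pool 2, against 253.6 to 347.1 in the others. In DUKsi it was Ier3 in pool 4, with a signal of 610 there and 263.1 to 300 in the other pools. Both arrays of these pools were used in each mean.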

How the results depend on the processing

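The count of immediate early gene probe sets called between FL1 and DUKsi was 0 under all 30 alternatives run, and 0 to 0 when each pool was left out in turn. For the correlations the count of pairs past the test was 0 in both lines under the 13 alternatives that give a count, but with 6 pools the design hardly allows another count, so this says nothing on stability. The log2 fold change changed sign under some alternatives, without a call, for Fos (5 of 27), Fosb (6 of 26), the brighter Jun probe set (1 of 28), Jund (4 of 27), Atf3 (1 of 26), Ier2 (10 of 27) and Ier3 (1 of 27), but for neither Egr1 nor Junb. For Fos, Fosb, Jund and Ier2, 1 of these alternatives was the scaling to the same median, which moves all probe sets alike. The median r of the pairs ranged from 0.06 (without FL1 pool 2) to 0.49 in FL1 and from -0.01 to 0.35 in DUKsi. With the pool number as a replicate block 0 of the 10 probe sets were called, and 564 of all probe sets passed the test, against 764 without the block. Same-numbered pools of the lines correlated at -0.30 to 0.15 in their deviations and 0 of 6 pools matched their own number best. A likeness of same-numbered pools was thus not seen, which does not show that they share only a number. Of all probe sets, 468 passed on the second arrays, 507 by the methods' t-test and 1278 with 24 arrays and the pool as a random block. With the beta-actin ratio as covariate, which did not overlap between the lines, 1241 passed, and without the 3 fat-rich pools 493 did. With 1 pool left out this number was 573 to 943, the highest without FL1 pool 3. In the 4 lists of other early, bZIP, input and feedback genes, 2 of 87 different genes passed the test, against 3.38% of all probe sets. With the beta-actin ratio as covariate it was 6 of 87, against 1241 of 22626 probe sets. At an adjusted p under 0.05 it was 7 of 87, against 6.91% of all probe sets. The counts of the lists thus rose along with those of all probe sets. The cause of these differences was not tested.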

Other observations

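Some other immediate early genes varied with Ier2 over the pools of both lines. Of the 29 in the brighter 60% of probe sets, 6 had an r of at least 0.6 with Ier2 in both FL1 and DUKsi (20.7%, against 3.35% of 12497 probe sets). They were Dusp1, an inducible phosphatase of MAP kinases (0.81 in FL1 and 0.91 in DUKsi), Zfp36, which destabilizes AU-rich mRNAs (0.90 in FL1 and 0.78 in DUKsi), the zinc finger factors Klf6 (0.77 in both lines) and Klf2 (0.71 in FL1 and 0.83 in DUKsi), the small GTPase gene Rhob (0.63 in FL1 and 0.89 in DUKsi) and the antiproliferative gene Btg2 (0.63 in FL1 and 0.91 in DUKsi). With Fos the count was 2 of 29 (6.9%, against 2.02%), namely Klf6 (0.78 in FL1 and 0.97 in DUKsi) and Btg2 (0.88 in FL1 and 0.69 in DUKsi). With Egr1 it was 1 of 29 (3.45%, against 1.78%), namely Zfp36 (0.76 in FL1 and 0.74 in DUKsi). An r of -0.6 or lower in both lines was found with Egr1 for 2 of 29 (6.9%, against 1.98% of probe sets), the zinc finger gene Klf10 (-0.68 in FL1 and -0.93 in DUKsi) and the survival gene Mcl1 (-0.66 in FL1 and -0.67 in DUKsi). With Ier2 it was found for 1 of 29 (3.45%, against 2.75%), Nfkbia, which encodes an inhibitor of NF-kappaB (-0.86 in FL1 and -0.70 in DUKsi), and with Fos for 0 of 29 (2.54% of probe sets). Zfp36 had a signal of 727 in FL1 pool 2, against 384 to 566 in the other FL1 pools, and of 519 in DUKsi pool 1, against 345.0 to 435 in the other DUKsi pools. These values are descriptions over 6 pools per line, which share their pools and RNA with the members, and no test was made. Ier2 itself was highest in FL1 pool 2 (671) and in DUKsi pools 1 and 2 (637 and 601). How far these relations rest on such pools was not looked at.

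By the lower of its correlations in FL1 and DUKsi with the mean of the members' centred log2 signals, the most similar of 12498 probe sets was that of Ift46, a component of cilia (0.96). It was followed by Plp2 (0.92) and Tnfrsf12a, the receptor of the cytokine Tweak (0.89). Next came Rbl2, a relative of the retinoblastoma protein (0.86), Cops4 (0.85), Smad1, a mediator of BMP signals (0.85), Aldoa (0.83) and Nfic (0.83). Among the members, which are part of that mean, Ier2 ranked 4 (0.88), Fos 65 (0.70) and Egr1 300 (0.58), whereas the brighter Jun probe set ranked 3217 (0.04). The mean of the members was highest in pool 2 in FL1 (0.47 above the mean of the line on the log2 scale) and in pool 1 in DUKsi (0.22). Members were not scaled to equal spread in this mean. Atf3, with the largest SD between pools (0.945 in FL1 and 0.594 in DUKsi), therefore weighed most, although its arrays did not agree. The genes named are the top of 12498 probe sets over 6 pools per line, and no test was made.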
